A study of Mus musculus with 4 samples.

Results

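The transforming growth factor beta (TGF-beta) genes described here are 9 of the 32285 genes counted in the series. They were chosen by symbol and comprise the ligands Tgfb1, Tgfb2 and Tgfb3, the receptors Tgfbr1, Tgfbr2, Tgfbr3, Acvrl1 and Eng, and the intracellular inhibitor Smad7. Each symbol was found once in the deposited matrices. Single-cell RNA sequencing had been done on hearts of C57BL/6J mouse embryos at E10.5, with 2 libraries from wild-type embryos (Wt1, Wt2) and 2 from embryos homozygous for the Cyp51 I383V allele (Ho1, Ho2), which was introduced with CRISPR/Cas9. Cyp51 encodes lanosterol 14-alpha-demethylase, an enzyme of cholesterol synthesis, and the allele changes a single amino acid in every cell of the embryo. The labels list CRISPR/Cas9 as the treatment of all 4 samples and do not say how many hearts entered a library. The spread between the 2 wild-type libraries may therefore be biological or technical. Counts of sex-linked genes, given below, show that the 2 mutant libraries came from embryos of different sex. The series was designed to compare gene expression in mutant and wild-type hearts.

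TGF-beta ligands are secreted in a latent form, released by integrins and other activators, and bind a type II receptor (Tgfbr2) that recruits and activates a type I receptor, either Tgfbr1 (ALK5) or, in endothelial cells, Acvrl1 (ALK1). Tgfbr3 (betaglycan) and Eng (endoglin) are co-receptors. The active type I receptor phosphorylates SMAD proteins that enter the nucleus, where Smad7 is among their target genes, and Smad7 in turn blocks the receptor. In the embryonic heart the pathway is known for its part in the transition of endocardial cells into the mesenchyme of the atrioventricular and outflow cushions, from which valves and septa form.

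The files held 109893733 unique molecular identifiers (UMIs, each standing for a captured mRNA molecule) in Wt1 and 117034633 in Wt2, with 127018819 in Ho1 and 107377100 in Ho2. After filters and removal of likely doublets 29168 cells were used. Cells were sorted in silico into 5 gates by marker genes: cardiomyocytes by Tnnt2 (10334 cells), endothelial and endocardial cells by Cdh5 (3837), cushion mesenchyme by Hapln1 together with Twist1 (2761), pharyngeal mesenchyme by Crabp1 (3763) and epicardium by Upk3b (512). A cell that met several gates was put in none, except that Crabp1 took no cell away from another gate, and the 1261 cells with Cdh5 and both cushion markers were kept apart and described on their own. The UMIs of each gene were summed per library and gate, and a level is given in CPM, the UMIs of a gene per 1000000 UMIs of the summed cells. All 8 markers of a list for each cell type were highest in their own gate, except that 6 of 8 were so in the cushion gate, where Snai1 and Col1a1 were higher elsewhere. In the Cdh5 gate the endocardial markers Nfatc1 and Npr3 summed to 213 to 236 CPM (5.17 to 7.96 CPM in the Tnnt2 gate) and the vascular markers Plvap and Mecom to 296 to 388 CPM (6.56 to 10.6 CPM in the Tnnt2 gate), so that the gate held transcripts of both and is called by its marker here.

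Several features of the libraries bear on the values that follow. The Crabp1 gate held 2737 cells in Wt1, 550 in Wt2, 436 in Ho2 and only 40 in Ho1. In those 40 cells the 8 cushion markers summed to 1311 CPM, against 394 to 545 CPM in the Crabp1 gate of the other libraries and 1407 to 1566 CPM in the cushion gate. The 8 cardiomyocyte markers summed to 1419 CPM in them, against 327 to 679 CPM in the other libraries, and the 8 markers of the gate's own list to 712 CPM, within the 646 to 815 CPM of the other libraries. Erythroid markers (6 globin and red cell genes) summed to 940 CPM in the Cdh5 gate of Ho1 and to 86.8 to 110 CPM in the other libraries, and in the Tnnt2 gate to 234 CPM in Ho1 and 3.86 to 16.2 CPM elsewhere. Xist, which female cells transcribe, was counted 28888 times in Ho1 and 2 to 5 times in each other library. The Y-linked gene Ddx3y was counted 0 times in Ho1, 2581 times in Wt1, 3071 in Wt2 and 2804 in Ho2. Ho1 thus came from female embryos and each other library from male embryos. The part of sex in the values of Ho1, and in those of Ho against Wt, was not tested. Library pairs shared 14 to 34 cell barcodes. Cyp51 itself is no check of the genotype, because a 3' count does not read a single-residue change. Its level in the Tnnt2 gate was 68.7 CPM in Wt1 and 64.2 in Wt2, with 61.8 in Ho1 and 72.4 in Ho2.

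All 9 genes have the same identifier in the files and in GENCODE M21 on GRCm38. Tgfb1 lies on chromosome 7 (25687002 to 25705077, plus strand) and Tgfb2 on chromosome 1 (186622792 to 186705989, minus strand). No other annotated gene overlaps either on its own strand. Tgfb3 lies on chromosome 12 (86056745 to 86079041, minus), Tgfbr1 on 4 (47353222 to 47414931, plus), Tgfbr2 on 9 (116084293 to 116175360, minus), Tgfbr3 on 5 (107106570 to 107289629, minus), Acvrl1 on 15 (101128522 to 101145336, plus) and Eng on 2 (32646595 to 32682669, plus). On the same strand as Tgfbr3 lie 3 unconfirmed gene models (TEC), and Eng holds 1 snoRNA and 2 miRNA models. The DNA just before the start of Tgfb1 and Tgfb2 is shown because their levels ran in different directions between gates. A link between sequence and level was not tested. The sequences are the 150 bases before the RefSeq start (GRCm38.p6), 5′ to 3′ on the gene's strand, at chr7:25686852-25687001 for Tgfb1 and chr1:186705990-186706139 for Tgfb2. Capitals mark matches on either strand to GGGCGG (the GC box), to the TATA box with the letters TATAAA, and to the ETS factor cores with the letters CAGGAA or CCGGAA. No match overlaps another.
Tgfb1: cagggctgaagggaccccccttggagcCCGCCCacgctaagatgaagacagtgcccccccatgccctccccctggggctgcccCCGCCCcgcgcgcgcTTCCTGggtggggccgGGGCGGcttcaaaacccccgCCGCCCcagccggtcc
Tgfb2: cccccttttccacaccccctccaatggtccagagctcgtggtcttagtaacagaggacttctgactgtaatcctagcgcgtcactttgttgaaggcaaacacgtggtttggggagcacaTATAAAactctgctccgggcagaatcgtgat
The Tgfb1 window held 4 GC boxes, 1 match to CAGGAA and no TATA box, with a GC content of 76.0%. The Tgfb2 window held no GC box and a TATA box that begins 31 bases before the start, with a GC content of 51.3%. Of 32851 RefSeq promoter windows of this length, 28.6% held a GC box, 7.57% a TATA box, 16.6% CAGGAA and 9.23% CCGGAA. Windows were also matched for Tgfbr2 and Eng, which held none of these letters, and for 2 starts of Tgfbr1, with 2 GC boxes in one of them. Tgfb3, Tgfbr3, Acvrl1 and Smad7 were not analysed here for sequence.

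Tgfb1 was a gene of the Cdh5 gate. Its level there was 98.3 CPM in Wt1 and 99.1 in Wt2, with 87.9 in Ho1 and 112 in Ho2. In the cushion gate it was 36.9, 33.6, 35.7 and 43.4 CPM in the same order, and in the Tnnt2 gate 4.78, 4.68, 3.81 and 3.83 CPM. No library overlapped between these 3 gates. The Cdh5 gate exceeded the mean of the other 4 gates by 3.15 ± 0.13 (log2 difference ± SE, 4 libraries, edgeR adjusted p = 3.92e-14). It exceeded the cushion gate, the next in order, by 1.50 ± 0.16 (adjusted p = 1.75e-07). After each cell was thinned to 2000 UMIs, Tgfb1 was detected in 16.4% of 3816 Cdh5 cells (exact 95% interval 15.3 to 17.6%) and in 0.994% of 9058 Tnnt2 cells (upper bound 1.22%). Without thinning these shares were 70.1% and 5.40%, at median depths per library of 13392.5 to 16711 and 11424.5 to 17632 UMIs. Platelets and macrophages also make Tgfb1. In the Cdh5 gate the 4 platelet markers summed to 16.6 to 63.1 CPM, led by Pf4 at a mean of 19.5 CPM with 1 of them at 0 UMIs, and the 7 macrophage markers to 1.53 to 4.58 CPM, led by Csf1r at 1.60 CPM with 1 at 0. Their part in the Tgfb1 level was not tested.

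Tgfb2, the ligand with the best known role in cushion formation, was lowest in the Cdh5 gate, at 25.8 CPM in Wt1 and 24.4 in Wt2, with 28.8 in Ho1 and 29.7 in Ho2. It was 87.1, 96.5, 95.6 and 103 CPM in the cushion gate, 77.8, 82.8, 85.8 and 95.6 CPM in the Upk3b gate and 49.5, 39.6, 51.7 and 59.9 CPM in the Tnnt2 gate. In the Crabp1 gate the libraries ranged from 41.3 CPM in Wt1 to 173 CPM in the 40 cells of Ho1. The cushion, Upk3b and Tnnt2 gates each lay above the Cdh5 gate in all 4 libraries. Between neighbours in the order of the levels, the Crabp1, cushion and Upk3b gates did not differ beyond their spread (adjusted p = 0.443 and 0.746), whereas the Upk3b gate exceeded the Tnnt2 gate by 0.56 ± 0.21 (edgeR adjusted p = 0.0266) and the Tnnt2 gate exceeded the Cdh5 gate by 1.07 ± 0.19 (adjusted p = 4.98e-05). The excess of the Crabp1 gate over the mean of the other gates (0.42, edgeR adjusted p = 0.0453) was not called without Ho1, where it was 0.28 (adjusted p = 0.175), nor without Wt2 (0.09, adjusted p = 0.724) or Ho2 (0.54, adjusted p = 0.0711).

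Tgfb3 was scarce, with 1142 UMIs over all cells used. Its highest level was in the Upk3b gate, at 10.0 CPM in Wt1 and 10.3 in Wt2, with 5.27 in Ho1 and 8.23 in Ho2, from 85 UMIs in all. The Cdh5 gate held 32 UMIs, or 0.358 to 0.545 CPM, and lay below every library of the other gates. The Upk3b gate exceeded the cushion gate, the next in order, by 0.90 ± 0.19 (edgeR adjusted p = 0.000764). Tgfb3 passed the filter on low counts through the other 4 gates and in no library of the Cdh5 gate. Its low value in the Cdh5 gate is therefore given by level only, and no test of it is read. Tgfb2 and Tgfb3 thus had their lowest level in the gate where Tgfb1 had its highest.

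**Figure D1:**
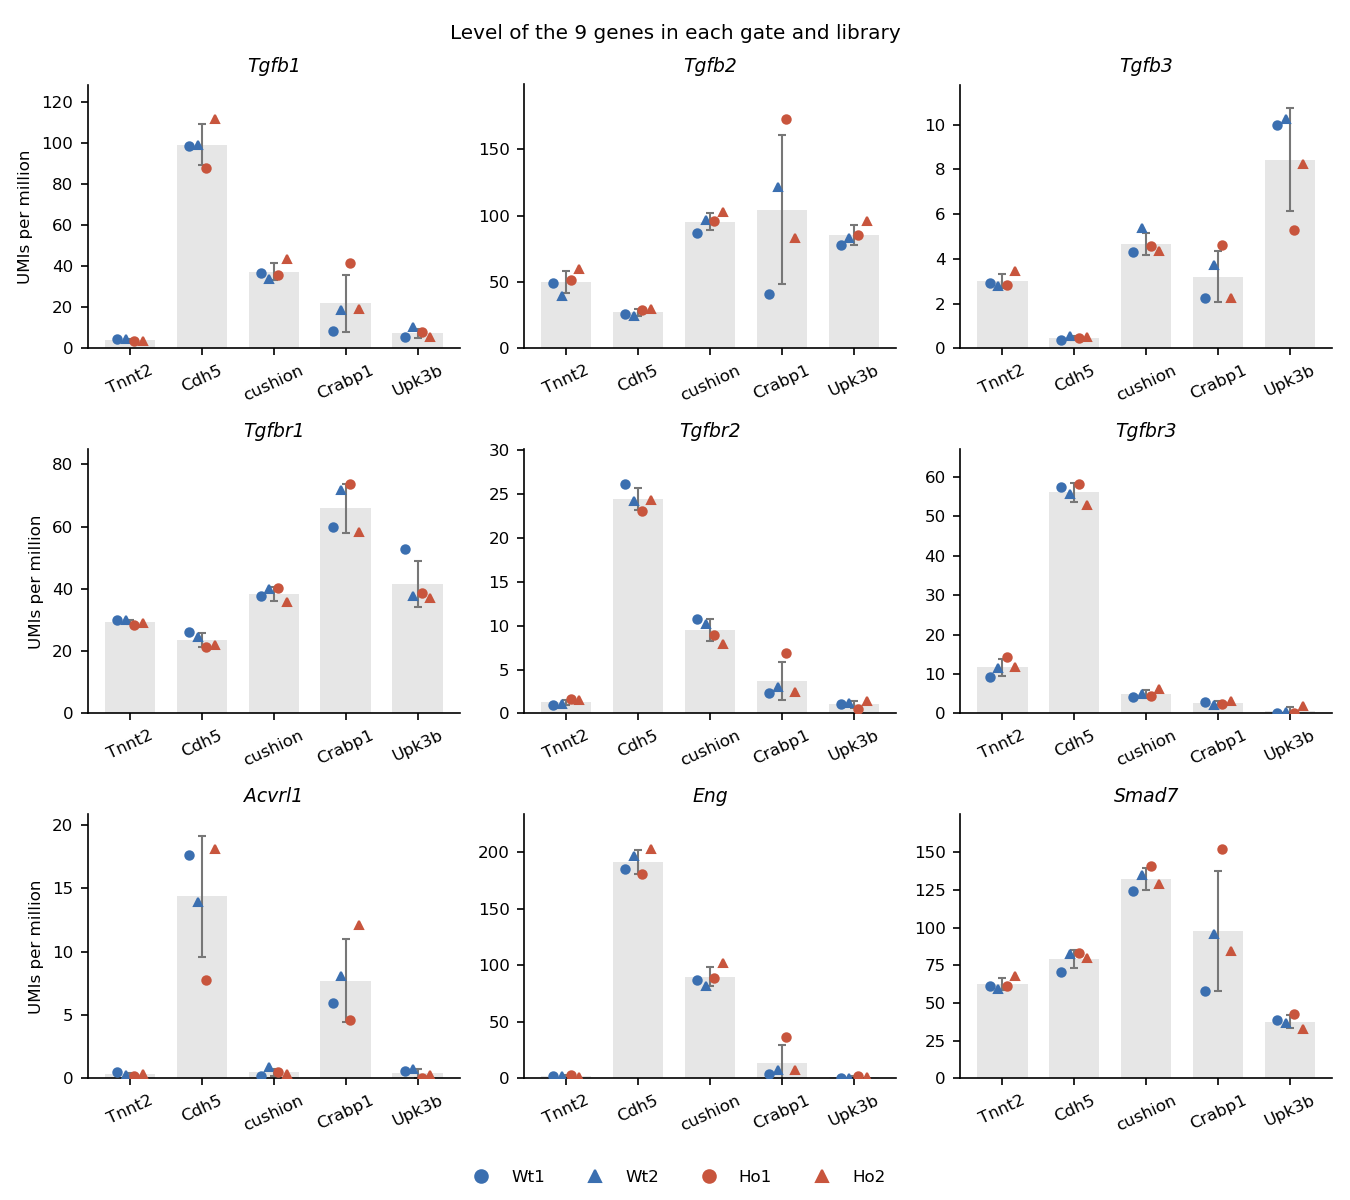
Levels of the 9 genes in CPM (y axis, with a separate scale for each gene) in the 5 gates (x axis). Points are the 4 libraries, grey bars their mean and whiskers the SD (n = 4). Tgfb1, Tgfbr2, Tgfbr3, Acvrl1 and Eng are highest in the Cdh5 gate, and the Crabp1 gate shows the widest spread for Tgfb1, Tgfb2, Tgfbr1, Tgfbr2, Eng and Smad7, with Ho1 on top in each.

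Among the receptors, Tgfbr1 was found in every gate. It was highest in the Crabp1 gate, at 59.9 CPM in Wt1 and 71.7 in Wt2, with 73.7 in Ho1 and 58.2 in Ho2, and lowest in the Cdh5 gate, at 26.1, 24.7, 21.4 and 22.0 CPM. Each library of the first lay above each of the second. The Crabp1 gate exceeded the Upk3b gate by 0.53 ± 0.09 (edgeR adjusted p = 0.000117) and the Tnnt2 gate exceeded the Cdh5 gate by 0.51 ± 0.07 (adjusted p = 1.76e-06), while the steps from the Upk3b to the cushion gate and from the cushion to the Tnnt2 gate did not pass the test (adjusted p = 0.184 and 0.140). The Tnnt2 gate was lower than the Upk3b gate (-0.27 ± 0.09, edgeR adjusted p = 0.0113).

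Tgfbr2, the type II receptor, was concentrated in the Cdh5 gate, at 26.2 CPM in Wt1 and 24.2 in Wt2, with 23.1 in Ho1 and 24.4 in Ho2. In the cushion gate it was 10.8, 10.2, 8.98 and 7.96 CPM, and in the Tnnt2 gate 1.01, 1.12, 1.60 and 1.48 CPM. The groups of libraries did not overlap. The Cdh5 gate exceeded the cushion gate by 1.45 ± 0.12 (edgeR adjusted p = 5.27e-09), and the cushion gate exceeded the Crabp1 gate by 1.90 ± 0.18 (adjusted p = 1.13e-07). In the thinned cells a UMI of Tgfbr2 was found in 4.82% of the Cdh5 cells, 1.85% of the cushion cells and 0 of 507 Upk3b cells, which allows a share of up to 0.592% at that depth (3 counts, for counting error only). Without thinning the shares were 30.6%, 13.1% and 2.15% (11 of 512 Upk3b cells), beside 2.11% in the Tnnt2 gate.

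Tgfbr3, the co-receptor that presents ligand to Tgfbr2, was 57.5 CPM in Wt1 and 55.5 in Wt2, with 58.2 in Ho1 and 52.9 in Ho2 in the Cdh5 gate. The Tnnt2 gate followed with 9.17, 11.6, 14.4 and 11.8 CPM, and the cushion gate with 4.10, 5.02, 4.49 and 6.29 CPM. The Cdh5 gate exceeded the Tnnt2 gate by 2.06 ± 0.12 (edgeR adjusted p = 5.11e-12), and the Tnnt2 gate exceeded the cushion gate by 1.55 ± 0.16 (adjusted p = 6.94e-08). In the Upk3b gate 8 UMIs were counted in all, with 0 in Wt1 and Ho1. When cells with any UMI of Cdh5 or Pecam1, both endothelial adhesion genes, were left out of the Tnnt2 gate (427 of 10334 cells), Tgfbr3 was 8.91, 11.5, 13.5 and 11.8 CPM in Wt1, Wt2, Ho1 and Ho2.

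Eng had the largest excess of the 9 genes in the Cdh5 gate, 4.96 ± 0.16 over the mean of the other gates (edgeR adjusted p = 1.41e-15). Its level there was 185 CPM in Wt1 and 197 in Wt2, with 180.4 in Ho1 and 203 in Ho2. The cushion gate had 87.3, 81.8, 88.9 and 102 CPM, and the Tnnt2 gate 2.36, 2.02, 3.20 and 1.22 CPM. A UMI of Eng was found in 32.4% of the thinned Cdh5 cells, 16.3% of the cushion cells and 0.618% of the Tnnt2 cells, and without thinning in 89.6%, 60.5% and 2.98%.

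Acvrl1, which pairs with Eng in endothelial cells, was 17.7 CPM in Wt1 and 14.0 in Wt2, with 7.81 in Ho1 and 18.1 in Ho2 in the Cdh5 gate. Ho1 was the low library, and is also the library with the high erythroid sum in this gate, whose part in the value was not tested. It passed the filter on low counts through this gate and the Crabp1 gate only, so that its lower calls in the other gates followed in part from the filter. In contrast to Eng, the gene was scarce in the cushion gate, where 22 UMIs gave 0.228 to 0.880 CPM, and it was second highest in the Crabp1 gate, at 5.98, 8.09, 4.61 and 12.1 CPM. Each library of the Crabp1 gate lay above each of the cushion gate. Because of the filter this is given by level only and no test of it is read. Eng in the Crabp1 gate was 3.78, 7.93, 36.9 and 7.62 CPM and Pecam1 was 4.16, 11.5, 43.8 and 10.2 CPM, both highest in Ho1, where the Acvrl1 value rested on 2 UMIs. Without cells holding a UMI of Cdh5 or Pecam1 (238 of 3763), Acvrl1 in the Crabp1 gate was 5.96 CPM in Wt1 and 7.25 in Wt2, with 9.66 in Ho1, from the same 2 UMIs, and 12.2 in Ho2. The 5 epithelial markers summed to 248, 468, 152 and 394 CPM in the Crabp1 gate, led by Krt18 at a mean of 171 CPM with none at 0 UMIs, and to 45.6 to 77.8 CPM in the cushion gate. They summed to 635 to 819 CPM in the Upk3b gate, where Acvrl1 had 4 UMIs in all. The part of epithelial cells in the Acvrl1 level of the Crabp1 gate was not tested.

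Smad7 was found in every gate. It was highest in the cushion gate, at 124 CPM in Wt1 and 135 in Wt2, with 141 in Ho1 and 129 in Ho2, and lowest in the Upk3b gate, at 38.9, 36.5, 42.7 and 32.9 CPM. In the Tnnt2 gate it was 61.1, 59.0, 61.4 and 68.2 CPM. These 3 gates did not overlap. The cushion gate exceeded the Crabp1 gate, the next in order, by 0.69 ± 0.11 (edgeR adjusted p = 6.21e-05) and the Tnnt2 gate exceeded the Upk3b gate by 0.96 ± 0.13 (adjusted p = 4.44e-06). The Crabp1, Cdh5 and Tnnt2 gates between them did not differ beyond their spread (adjusted p = 0.802 and 0.167).

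Against the mean of the other gates, 7 of the 9 genes passed the test in the Tnnt2 gate (2 higher, 5 lower), 8 in the Cdh5 gate (5 higher, 3 lower), 7 in the cushion gate (6 higher, 1 lower), 7 in the Crabp1 gate (3 higher, 4 lower) and 8 in the Upk3b gate (2 higher, 6 lower). Of the 13879 genes tested, 72.5%, 61.6%, 47.9%, 51.8% and 39.1% were called in these comparisons in the same order, so that genes of any kind often differed between gates. By direction, 37.9% of all genes were higher and 34.6% lower in the Tnnt2 gate, 30.5% and 31.1% in the Cdh5 gate, 25.8% and 22.1% in the cushion gate, 25.4% and 26.5% in the Crabp1 gate and 19.2% and 19.9% in the Upk3b gate. The median log2 difference of the 9 genes was 3.15 in the Cdh5 gate and 0.86 in the cushion gate, beside medians of -0.01 and 0.01 over all genes tested. In the Tnnt2, Crabp1 and Upk3b gates it was -0.17, -0.19 and -1.62, beside 0.01, -0.01 and -0.05. Some of these calls were lost under at least 1 alternative, as given in the last section. They were Tgfb1, Tgfb2, Tgfbr3 and Eng in the Crabp1 gate, Tgfb3 and Tgfbr1 in the Tnnt2 gate and Tgfb2 in the Upk3b gate. Acvrl1 is among the called genes in every gate, and the filter limit given above applies to it, as it does to Tgfb3 in the Cdh5 gate.

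**Figure D2:**
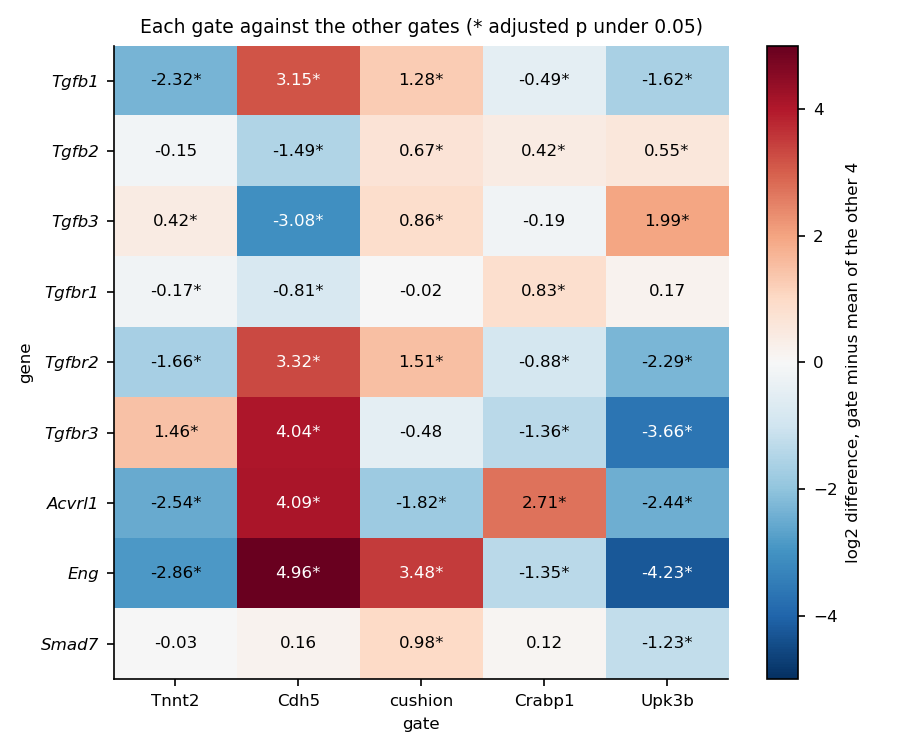
Log2 difference of each gene (rows) between a gate (columns) and the mean of the other 4 gates, from the fit of 20 sums (5 gates in 4 libraries) with the library as a block. Red is higher, blue is lower, the number is the log2 difference and an asterisk marks an adjusted p under 0.05. Eng, Acvrl1 and Tgfbr3 reach 4.04 to 4.96 in the Cdh5 gate, while Tgfb3 is 3.08 lower there (-3.08). Tgfb3 was over the limit of the filter in no library of that gate, so its call there followed in part from the filter.

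Across the 20 sums Tgfb1 ran with Tgfbr2 and Eng (Pearson r of log2 levels 0.95 for each, n = 20), and Tgfbr2 ran with Eng (0.97), whereas Tgfb2 ran with Tgfb3 (0.80) and opposite to Tgfbr3 (-0.79). These are descriptions, since the 5 gates of a library share that library and depth. The 3 genes most like Tgfb1 were Arap3 (r = 0.987), Ramp2 and Npdc1, and those most like Eng were Nrg1 (0.988), Icam2 and Fxyd5. Icam2, an endothelial adhesion gene, was also among the 3 most like Tgfbr2, with Rasa3 (0.986) and Grap. Those most like Tgfb2 were Unc5b (0.955), Ndfip1 and Plod2, and those most like Smad7 were Pdlim3 (0.946), Csnk1a1 and Fstl1. Tgfb3 was most like the collagen gene Col6a1 (0.973), Tgfbr1 most like Fzd3 (0.974), Tgfbr3 most like Zfhx2 (0.963) and Acvrl1 most like Gng11 (0.958).

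Between endothelial and cushion cells lay 1261 cells that held at least 2 UMIs each of Cdh5, Hapln1 and Twist1. Tgfb1 in these cells was 82.4 CPM in Wt1 and 89.3 in Wt2, with 74.1 in Ho1 and 109 in Ho2, and Eng was 199, 204, 182 and 217 CPM. Both were near their levels in the Cdh5 gate. Tgfbr2 was 22.1, 22.9, 19.2 and 23.1 CPM there. Acvrl1 was 4.43, 4.84, 3.70 and 4.79 CPM, below the Cdh5 gate and above the cushion gate in every library. Tgfb2 was 39.6, 39.0, 38.7 and 45.0 CPM, above the Cdh5 gate and below the cushion gate in every library, as was Smad7 with 102, 91.6, 99.6 and 95.4 CPM. These cells were not tested, because the markers that define them also define both neighbouring gates.

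Endothelial transcripts were also counted in the cushion gate. Pecam1 was 46.6 CPM in Wt1 and 39.2 in Wt2, with 44.4 in Ho1 and 46.1 in Ho2, against 140.2 to 159.8 CPM in the Cdh5 gate, and 1213 of the 2761 cells (43.9%) had a UMI of Cdh5 or Pecam1. In the 1548 cells without either, Eng was 62.0, 55.6, 60.9 and 70.5 CPM in Wt1, Wt2, Ho1 and Ho2, lower than in the whole gate in every library and above every library of the Tnnt2, Crabp1 and Upk3b gates. Tgfb1 was 31.4, 27.3, 30.2 and 33.2 CPM in them and Tgfbr2 was 7.95, 8.53, 9.16 and 7.80 CPM. Tgfb2 was 92.0, 104, 103 and 109 CPM. Acvrl1 was at 0 UMIs in Wt1 and at 1 to 3 UMIs in the other libraries. Tgfbr3 in these cells was 2.58, 3.04, 2.82 and 3.27 CPM, below the whole gate in every library. With all cells its difference between the cushion gate and the others was -0.48 and not called. When cells with a UMI of Cdh5 or Pecam1 were left out of every gate but Cdh5, it was -1.24 and called.

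**Figure D3:**
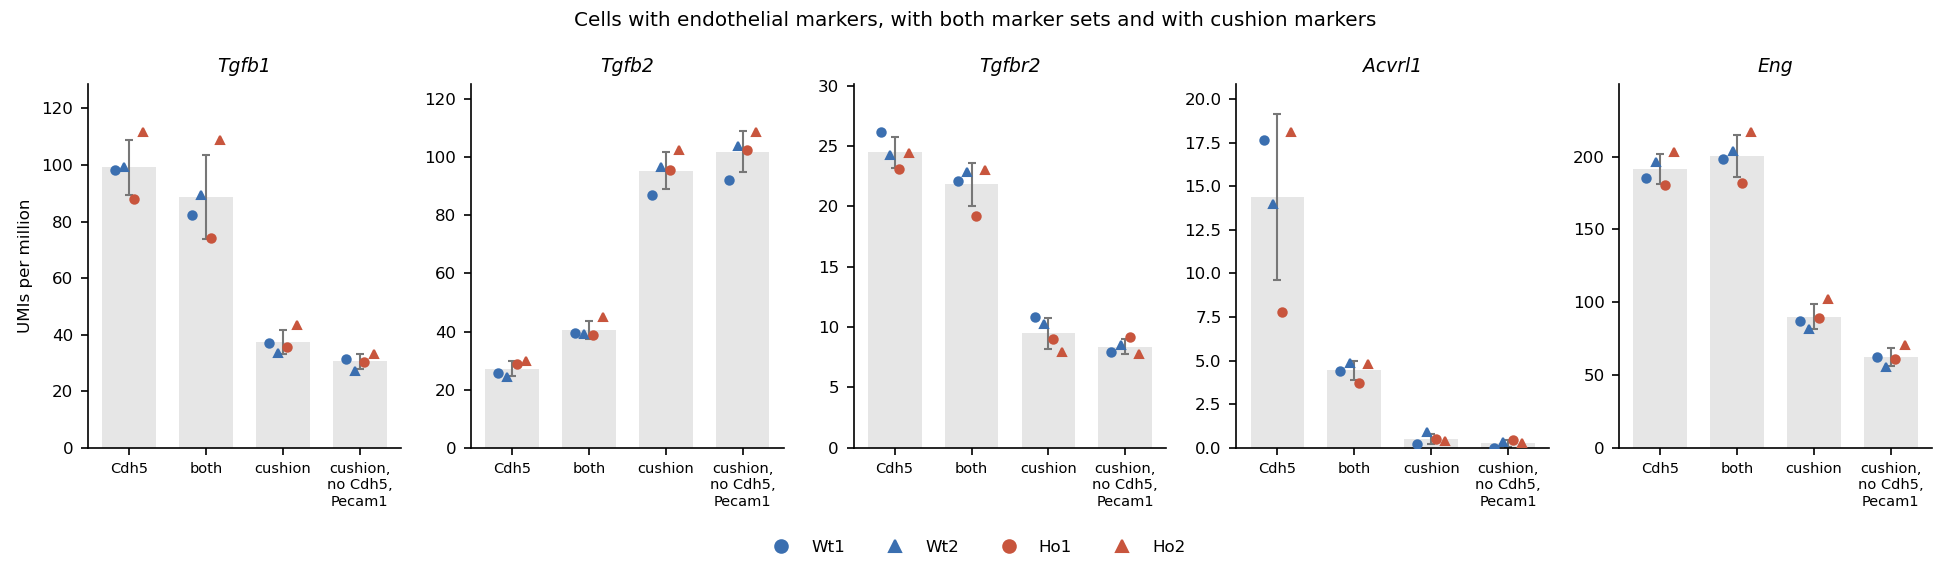
CPM (y axis, a separate scale for each gene) of 5 genes in the Cdh5 gate, in cells with Cdh5 and both cushion markers, in the cushion gate, and in cushion cells without UMIs of Cdh5 or Pecam1. Points are libraries, bars the mean and whiskers the SD (n = 4). Tgfb2 climbs from a mean of 27.2 to 102 CPM from left to right, Acvrl1 falls to 0.245 CPM, and Eng keeps a mean of 62.2 CPM in the last group.

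Cardiomyocytes were divided by a UMI of Tbx2, a transcription factor of atrioventricular canal and outflow myocardium, into 1357 Tbx2+ and 8977 Tbx2- cells, with the library as a block. Tgfb2 was 77.9 CPM in Wt1 and 78.9 in Wt2, with 104 in Ho1 and 118 in Ho2 in Tbx2+ cells, and 45.4, 32.6, 42.1 and 46.0 CPM in Tbx2- cells. Each Tbx2+ value lay above each Tbx2- value, and the difference was 1.17 ± 0.06 (edgeR adjusted p = 2.06e-12). Smad7 was 87.8, 85.9, 89.1 and 101 CPM against 57.2, 54.1, 56.3 and 60.3 CPM, a difference of 0.63 ± 0.05 (adjusted p = 5.11e-10). Tgfbr3 was lower in Tbx2+ cells, at 5.35, 5.48, 7.82 and 4.38 CPM against 9.72, 12.6, 15.6 and 13.6 CPM (-1.25 ± 0.12, edgeR adjusted p = 2.5e-08). Tgfb1, with 156 UMIs in the Tbx2+ cells, was also called (0.62 ± 0.19, adjusted p = 0.0199), but its groups overlapped and the call was lost without Ho2 (0.31, adjusted p = 0.380), without Wt1 (0.55, adjusted p = 0.0609), with DESeq2 (0.62, adjusted p = 0.0904) and with doublets kept (0.47, adjusted p = 0.0654). These were 4 of the 8 genes that passed the filter on low counts, beside 21.0% of all genes called (10.7% higher and 10.3% lower). Tbx2+ cells were deeper (median 18692 against 15556 UMIs), and the part of depth in these differences was not tested.

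Myl2, the ventricular myosin light chain, was used to divide the same cells into 5191 with high and 5143 with low Myl2. Tgfbr3 was 16.9 CPM in Wt1 and 18.1 in Wt2, with 21.3 in Ho1 and 21.0 in Ho2 in Myl2-high cells and 3.10, 3.71, 3.93 and 3.49 CPM in Myl2-low cells. The groups lay far apart, with a difference of 2.59 ± 0.08 (edgeR adjusted p = 5.35e-13). Smad7 went the other way, at 44.2, 38.5, 51.9 and 50.8 CPM in Myl2-high and 74.3, 83.6, 75.7 and 83.8 CPM in Myl2-low cells (-0.63 ± 0.06, edgeR adjusted p = 5.81e-07). Tgfbr1 was likewise lower in Myl2-high cells, at 23.7, 24.3, 25.01 and 22.5 against 35.3, 36.7, 33.6 and 35.1 CPM (-0.41 ± 0.06, adjusted p = 1.54e-05), as was Tgfb1 (-0.64 ± 0.18, adjusted p = 0.0063), which was not called without Wt2 (-0.40, adjusted p = 0.0663). These were 4 of 8 genes tested, beside 51.4% of all genes (26.4% higher and 25.1% lower), and Tgfb2 was not among them (-0.07, 95% interval -0.17 to 0.03). Bmp10, made by trabecular myocardium and a ligand of Acvrl1 and Eng, was higher in Myl2-high cells by 2.10 ± 0.07. Myl2-high cells were deeper (median 17843 against 14435 UMIs), and the part of depth was not tested.

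In the Cdh5 gate, 3436 cells with a UMI of Nfatc1 or Npr3, which mark endocardium, were compared with 401 cells without either. Tgfbr3 was 61.8 CPM in Wt1 and 57.5 in Wt2, with 59.3 in Ho1 and 55.3 in Ho2 in the first and 25.8, 31.4, 34.0 and 28.4 CPM in the second. It was higher in the marked cells in all 4 libraries (0.97 ± 0.12, edgeR adjusted p = 6.79e-05). Acvrl1 was 15.1, 13.2, 7.83 and 16.4 CPM in marked and 36.4, 24.0, 7.45 and 36.1 CPM in unmarked cells. The difference (-0.97 ± 0.18, adjusted p = 0.0026) was thus seen in 3 of 4 libraries and not in Ho1, which had 75 unmarked cells. Smad7 was 69.7, 78.0, 81.2 and 76.9 CPM in marked and 77.3, 143, 129 and 110.2 CPM in unmarked cells (-0.58 ± 0.10, edgeR adjusted p = 0.0014). These 3 of 8 genes tested stand beside 7.85% of all genes called (3.59% higher and 4.26% lower). Eng, at 181 to 202 CPM in marked and 151 to 212 CPM in unmarked cells, was not called (0.10, 95% interval -0.04 to 0.25). The marked cells were deeper, with a median of 16177 against 11406 UMIs.

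**Figure D4:**
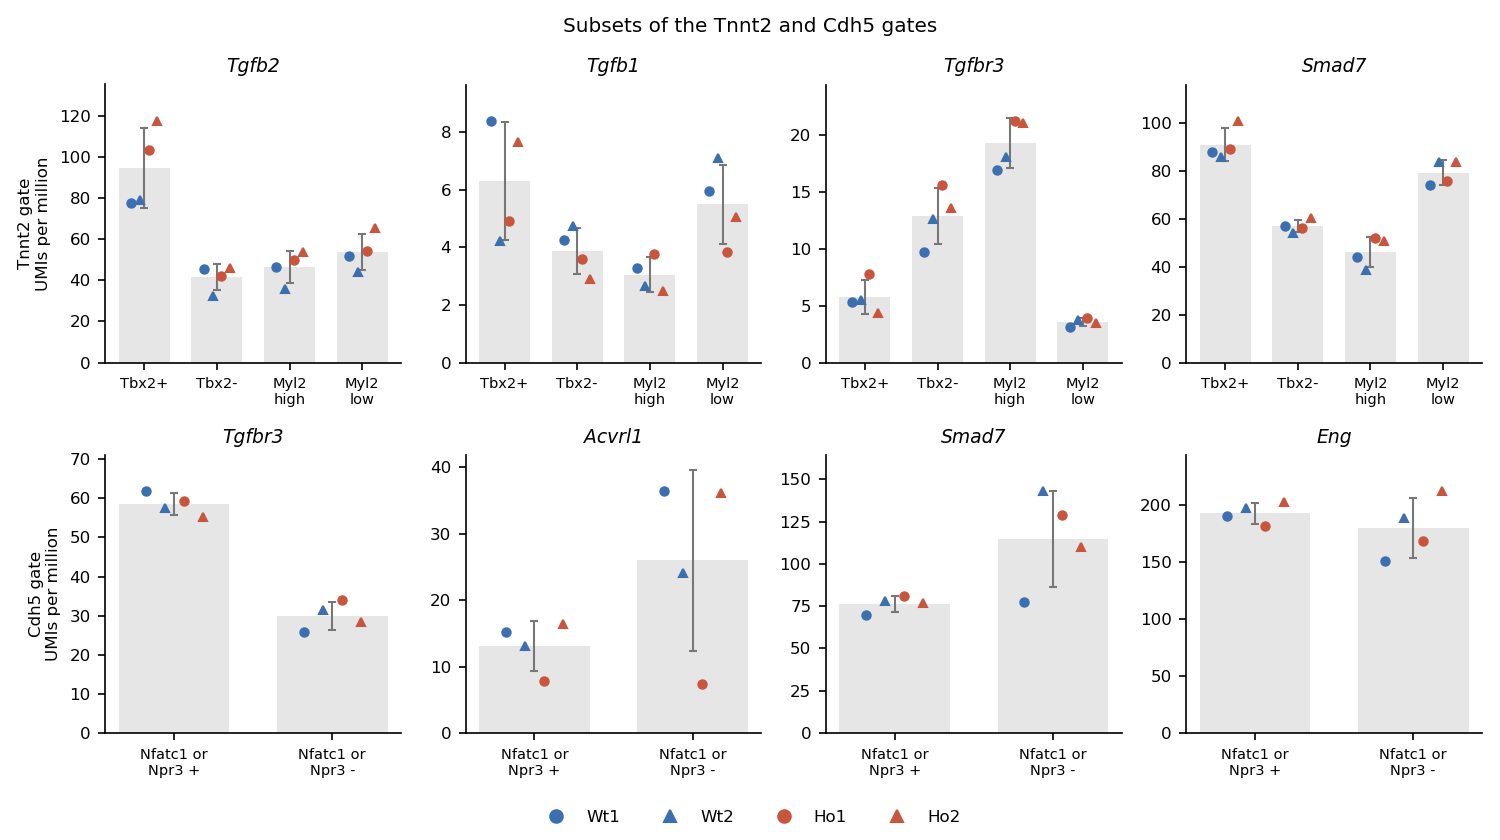
CPM (y axis, a separate scale for each panel) in subsets of the Tnnt2 gate (upper row, cells with and without a UMI of Tbx2 and with high and low Myl2) and of the Cdh5 gate (lower row, cells with and without a UMI of Nfatc1 or Npr3). Points are libraries, bars the mean and whiskers the SD (n = 4). Tgfb2 separates by Tbx2 but not by Myl2, Tgfbr3 separates most by Myl2, and Acvrl1 is higher in cells without the endocardial markers in all libraries but Ho1.

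Between genotypes, none of the 9 genes passed the test in any gate with all 4 libraries. Without Ho2, Tgfbr3 was called higher in the Tnnt2 gate, where the remaining single Ho library was Ho1 and 249 genes were called in all. The summed UMIs of 2 Ho and 2 Wt libraries were compared by edgeR's quasi-likelihood test within each gate, and the genes that passed the filter on low counts were 9 in the Tnnt2 gate, 8 in the Cdh5 gate (all but Tgfb3), 8 in the cushion gate (all but Acvrl1), 9 in the Crabp1 gate and 5 in the Upk3b gate. Of all genes, 0% were called in the Tnnt2, Cdh5 and Crabp1 gates (0 of 14662, 12934 and 11811), 0.0243% in the cushion gate (3 of 12336) and 0.0205% in the Upk3b gate (2 of 9760, with 0.0102% higher and 0.0102% lower). At an unadjusted p under 0.05 there were 920, 635, 720, 158 and 500 genes in the Tnnt2, Cdh5, cushion, Crabp1 and Upk3b gates, where 5% of the genes tested would be 733, 647, 617, 591 and 488. The median SE of the log2 difference over all genes tested was 0.13, 0.14, 0.14, 0.34 and 0.23 in the same order, so that a count of 0 in the Crabp1 gate, with the largest SE, says little about that gate. DESeq2 called 20, 14, 6, 0 and 6 genes, with 0 of the 9 genes in each.

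The gene nearest to a call was Tgfb2. In the Tnnt2 gate it was 49.5 CPM in Wt1 and 39.6 in Wt2 against 51.7 in Ho1 and 59.9 in Ho2, a log2 difference of 0.32 ± 0.11 (95% interval 0.06 to 0.58, unadjusted p = 0.0222, edgeR adjusted p = 0.778). In the Cdh5 gate the values were 25.8 and 24.4 against 28.8 and 29.7 CPM, with a difference of 0.27 ± 0.11 (0.02 to 0.51, unadjusted p = 0.0374, edgeR adjusted p = 0.939). Its estimate was also above 0 in the cushion (0.12), Crabp1 (0.61) and Upk3b (0.22) gates, where the intervals reached below 0. The 5 gates come from the same 4 libraries and are not independent. The libraries also differed in the make-up of the Tnnt2 gate. Tbx2+ cells numbered 166 of 1778 in Wt1, 315 of 2657 in Wt2, 473 of 3440 in Ho1 and 403 of 2459 in Ho2. Myl2-high cells numbered 768, 1390, 1975 and 1058 in the same order. The part of this make-up in the genotype values of Tgfb2 and Tgfbr3 was not tested. For Tgfb2 the lower Ho library exceeded the higher Wt library in the Tnnt2, Cdh5 and Upk3b gates, which was also so for 17.6%, 11.9% and 12.1% of all genes tested in these gates.

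In the Tnnt2 gate 6 of the 9 genes had Wt and Ho libraries that did not overlap, beside 34.4% of all genes tested: the Ho values of Tgfb2, Tgfbr2, Tgfbr3 and Smad7 lay above the Wt values, and those of Tgfb1 and Tgfbr1 below. In the other gates this was so for 2 of 8 genes in the Cdh5 gate (35.6% of all genes), 2 of 8 in the cushion gate (34.1%), 1 of 9 in the Crabp1 gate (26.8%) and 2 of 5 in the Upk3b gate (34.5%). In the Tnnt2 gate Tgfb1 had the estimate -0.31 (95% interval -0.64 to 0.02), which was 0.22 with clusters in place of gates. The estimates were 0.52 (-0.04 to 1.07) for Tgfbr2, at its low level in this gate, and 0.32 (-0.03 to 0.68) for Tgfbr3. In the Cdh5 gate, where most of these receptors were found, the intervals were narrow for Eng (0.05, -0.14 to 0.23), Tgfbr3 (0.02, -0.20 to 0.24), Tgfb1 (0.05, -0.19 to 0.30) and Tgfbr2 (-0.04, -0.30 to 0.21). For Acvrl1 the interval was wide (-0.28, -1.02 to 0.47), and without Ho1, its low library, the estimate was 0.23. Smad7 in the cushion gate had the estimate 0.07 (-0.11 to 0.25). In the Crabp1 gate the estimates of Eng (1.48, -0.28 to 3.24) and Tgfb1 (1.00, -0.12 to 2.13) were imprecise, and the highest library in both was Ho1 with its 40 cells. Without Ho1 they were 0.47 and 0.60, and the estimate of Tgfb2 in this gate, 0.61 with all libraries, was 0.087.

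**Figure D5:**
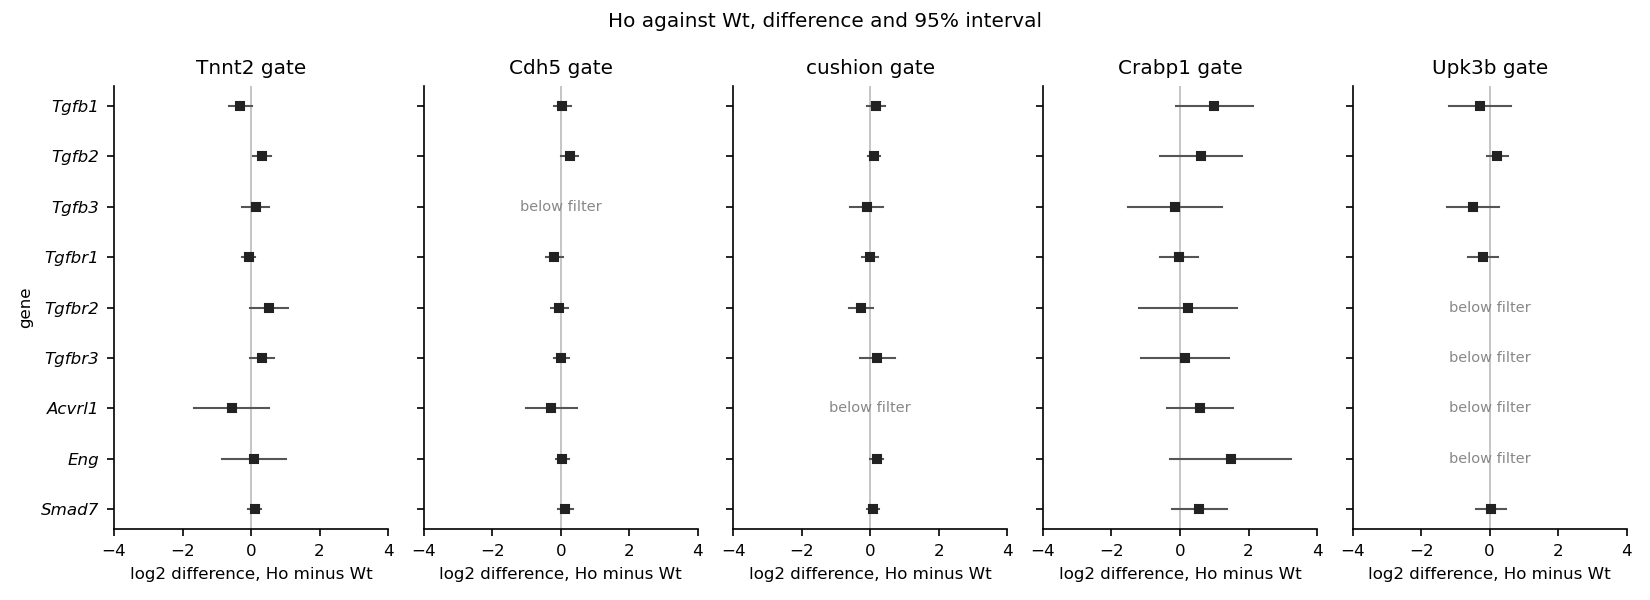
Log2 difference between Ho and Wt libraries (x axis, squares) with its 95% interval (lines) for the 9 genes (y axis) in each gate, from edgeR on 2 libraries per genotype. Genes that did not pass the filter on low counts are marked. All adjusted p-values are above 0.05, and only the intervals of Tgfb2 in the Tnnt2 and Cdh5 gates lie wholly above 0.

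Whether the genotype difference itself varied between gates was tested as an interaction over the 20 sums. None of the 9 genes passed, with unadjusted p-values from 0.105 (Tgfbr2) to 0.951 (Tgfb2), and 0% of 13879 genes were called.

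The other genes of the pathway were taken from a list of 68 genes besides the 9: latency and activation (15), other ligands (7), other receptors (7), SMADs (7), modulators (15) and target genes (17). None of the 66, 58, 60, 56 and 52 of them tested in the Tnnt2, Cdh5, cushion, Crabp1 and Upk3b gates was called between Ho and Wt, with median log2 differences of 0.03, 0.06, 0.05, 0.21 and -0.13, beside medians over all genes tested that lay between -0.0090 and 0.0042. Between gates, 63 of them were tested, of which Tdgf1 and Gdf2 were over the limit of the filter in 1 gate only and Bmp10 was so in all libraries of 1 gate only. Their calls, which the counts below include, followed from that filter and are not read here. In the cushion gate 42 were higher than in the other gates and 5 were lower, beside 25.8% and 22.1% of all genes. There, 11 of 13 latency and activation genes and 14 of 17 target genes were higher. The target genes Postn, Sox9, Snai1 and Col1a1 are also among the cushion markers used to check this gate. The count of target genes is therefore not independent of the cell identity of the gate. The largest differences were those of the matrix gene Postn (4.24 ± 0.20), the activin subunit Inhba (4.08 ± 0.23), the TGF-beta activator Thbs1 (3.60 ± 0.13) and the latent TGF-beta binding protein Ltbp4 (3.17 ± 0.17). Thbs1 was 149.6 CPM in Wt1 and 159.6 in Wt2, with 146 in Ho1 and 151 in Ho2 in this gate and 6.38 to 7.12 CPM in the Tnnt2 gate, without overlap.

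In the Cdh5 gate 19 of the 63 genes were higher and 24 lower, beside 30.5% and 31.1% of all genes. Of 13 latency and activation genes 8 were higher and 3 lower, Ltbp4 among the higher at 43.3, 45.2, 38.0 and 45.6 CPM, and of 17 target genes 4 were higher and 10 lower. The 4 largest differences were all lower, those of Col1a1 (-6.04 ± 0.35), the smooth muscle actin gene Acta2 (-4.17 ± 0.44), the TGF-beta activating integrin subunit Itgb8 (-4.13 ± 0.26) and the smooth muscle gene Tagln (-4.01 ± 0.39). Itgb8 was over the limit of the filter in no library of this gate, so its call followed in part from the filter. In the Tnnt2 gate 20 of the 63 genes were higher and 36 lower, beside 37.9% and 34.6% of all genes. Acta2 was higher by 4.48 ± 0.28 and Postn was lower (-4.42 ± 0.35). Tdgf1, a co-receptor of nodal, had 330 UMIs there, 2 in the Cdh5 gate, 2 in the Crabp1 gate and 0 in the others. Bmp10 was 10.0 CPM in Wt1 and 15.5 in Wt2, with 18.4 in Ho1 and 15.4 in Ho2 in the Tnnt2 gate and at most 1.70 CPM in any library of another gate. By level alone, with no test read, Bmp10 was highest in the Tnnt2 gate, and Acvrl1 and Eng were highest in the Cdh5 gate.

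In the Crabp1 gate 24 of the 63 genes were higher and 15 lower, beside 25.4% and 26.5% of all genes, with Col1a1 (2.86 ± 0.20) and the target gene Tgfbi (2.30 ± 0.29) above the other gates. Tgfbi was 55.0 CPM in Wt1 and 111 in Wt2, with 348 in Ho1 and 96.5 in Ho2, so that Ho1 stood apart again. In the Upk3b gate 14 were higher and 19 lower, beside 19.2% and 19.9% of all genes. Gdf2, which encodes BMP9, the other ligand of Acvrl1 and Eng, had 63 UMIs over the 5 gates, of which 14 lay there (0.958 to 2.28 CPM). Col1a1 was higher by 2.64 ± 0.22, and Tgfbi (-3.02 ± 0.57) and Ltbp4 (-2.64 ± 0.47) were lower.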

How the data were processed

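The deposited counts were UMIs per gene and cell barcode, made by the authors with Cell Ranger 6.1.1 on mm10 from 10x 3' libraries, 1 matrix per library. From these, cells with 500 to 50000 UMIs, 500 to 6000 genes and at most 20% mitochondrial UMIs were kept, and Scrublet (scanpy 1.11.5) removed 334 to 746 likely doublets per library. Gates required at least 2 UMIs of each marker, or, for Tnnt2 and Crabp1, 5.69 and 1.70 UMIs per 10000 (Otsu limits). Myl2-high cells had at least 7.52 per 10000. Median depth per cell was 10551.5 to 15843 UMIs.

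UMIs were summed per gate and library and tested with edgeR 4.0.16 (R 4.3.3; quasi-likelihood, TMM, filterByExpr, Benjamini-Hochberg over all genes tested, threshold 0.05). Gates and subsets were compared with the library as a block, genotypes within a gate without one. Between genotypes, same-numbered libraries did not deviate together (correlations from -0.165 to -0.015), and the labels name no shared litter or batch. The 9 genes and the gene lists were chosen with earlier results of these data known. Named pathway genes were those with the largest called differences in each gate. Alternatives were DESeq2 1.42.0, RLE normalization, no filter, a replicate block, left-out libraries, doublets kept, stricter gates and clusters.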

Additional observations from a re-analysis of the deposited data

How the results depend on the processing

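With 2 libraries per genotype, and 40 Crabp1 cells in Ho1, the depth of that gate and the number of libraries limit the comparison of Ho with Wt. The count of the 9 genes called between genotypes was 0 under every alternative run, except that without Ho2 it was 1 in the Tnnt2 gate (Tgfbr3, range 0 to 1 over left-out libraries). A fit without a library leaves 1 sample in a genotype, which is assumed to vary like the other pair. Counts over all genes moved more. DESeq2 called 20 genes in the Tnnt2, 14 in the Cdh5, 6 in the cushion and 6 in the Upk3b gate. With no filter on low counts 218, 204, 136, 98 and 116 genes were called in the Tnnt2, Cdh5, cushion, Crabp1 and Upk3b gates, and 231 for the interaction. Leaving out a library gave 1 to 249, 4 to 83, 18 to 213, 0 to 97 and 0 to 81 genes in the same order, and 0 to 1 for the interaction. RLE normalization gave 1 gene in the Upk3b gate and clusters in place of gates gave 1 in the Cdh5 gate. Leaving out cells with Cdh5 or Pecam1 UMIs, an alternative chosen after seeing the data, gave 9 in the cushion and 1 in the Upk3b gate. With the replicate number as a block, 13 genes were called in the cushion and 1 in the Upk3b gate, 0 of the 9 genes was called in any gate, and the libraries share only a number. The crossed pairing in the Crabp1 gate, also added later, gave 2 genes. The causes were not tested.

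Of the 39 genotype estimates of the 9 genes, none of them called, 21 changed direction under at least 1 alternative. Those named here are of the genes in their highest gate and those named above. Over left-out libraries the log2 difference in the Cdh5 gate ranged from -0.12 to 0.031 for Tgfbr2 (above 0 without Wt1), from -0.081 to 0.11 for Tgfbr3 (below 0 without Wt2, at -0.029, and without Ho1), from -0.92 to 0.23 for Acvrl1 (above 0 without Ho1), from -0.099 to 0.19 for Tgfb1 and from -0.014 to 0.0999 for Eng (both below 0 without Ho2). With clusters Tgfbr3 was -0.000169 there, Tgfb1 was 0.22 in the Tnnt2 gate and Tgfb2 was -0.049 in the cushion gate. Smad7 in the cushion gate ranged from -0.016, without Ho1, to 0.15, and Tgfbr1 in the Crabp1 gate from -0.17 to 0.11, the latter without Ho2. Of the 45 differences between a gate and the others, 4 changed direction under at least 1 alternative. Of the 37 called, 1 did so, Tgfb1 in the Crabp1 gate (-0.49, and 0.10 with clusters), and 7 were not called under at least 1 alternative: Tgfb1, Tgfb2, Tgfbr3 and Eng in the Crabp1 gate, Tgfb3 and Tgfbr1 in the Tnnt2 gate and Tgfb2 in the Upk3b gate. The excess of Tgfb2 in the Crabp1 gate was also not called with doublets kept (0.38, edgeR adjusted p = 0.0577), with stricter gates (0.34, adjusted p = 0.189) or without cells holding Cdh5 or Pecam1 UMIs (0.20, adjusted p = 0.322). Over all alternatives the genes called of the 9 numbered 6 to 8 in the Tnnt2, 8 to 9 in the Cdh5, 7 to 8 in the cushion, 5 to 7 in the Crabp1 and 7 to 9 in the Upk3b gate, and 3 to 4 by Tbx2, 3 to 6 by Myl2 and 3 by Nfatc1 or Npr3.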
